A study of Arabidopsis thaliana with 10 samples.

Results

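The IQD genes of Arabidopsis thaliana encode calmodulin-binding scaffold proteins. The family holds 33 loci, IQD1 to IQD33, and its members were chosen as those loci. Of these, 32 had at least 1 probe on the array, and 31 passed the filter on dim probes (5 or more of the 10 arrays well above background). The array held 34290 genes in all, where probes without a matched locus count as genes under their own array name. The interest in the family came from measured values: it was chosen by the change of IQD16 between irradiated and mock seedlings. IQD18 (AT1G01110) had no matching probe and was not analysed here. IQD27 (AT1G51960) stayed at background on all 10 arrays, with signals between 2.83 and 15.2 intensity units, and no change is given for it.

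Transcript levels were measured with 1-colour (Cy3) Agilent arrays in whole 14-day-old seedlings of the Columbia-0 ecotype. The gamma group received 200 Gy of gamma rays from a cobalt source within 4 h (50 Gy each hour), and the other group is labelled mock. Both were sampled 24 h after exposure. Both groups grew on half-strength Murashige and Skoog medium with sucrose in long days. There were 5 runs on separate days, each with its own plants and with a pair of arrays, which makes 5 arrays per group. Runs 1 and 2 fell in an earlier year than runs 3, 4 and 5.

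IQD proteins are plant-specific. They share a conserved domain of repeated IQ motifs that binds calmodulin and calmodulin-like proteins, and many of them sit on microtubules, at the plasma membrane or in the nucleus. They are known for linking calcium signals to the microtubule array, to cell shape and to the plane of cell division.

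Each level is log2 of the processed signal minus the 75th percentile of that array, so 0 is the signal at that percentile and each unit is a doubling. Levels of separate probes are not on a common scale, and only values of the same probe were compared. Between 71.7% and 76.6% of probes were well above background per array, 0 spots were saturated, and the 75th percentile lay between 1644 and 2642 intensity units. Each run was also 1 slide and 1 scan, so the difference within a run is a difference within a slide. The mock array was at position 1 and the gamma array at position 2 on all 5 slides, so position and treatment cannot be told apart. Precision is limited by this number of arrays.

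Leaf markers were bright on all arrays, from the summed signal of 6 genes. It was 571 to 1020 times the 75th percentile on the mock arrays and 619 to 1040 times on the gamma arrays. Of 14 root markers 13 were measured, so shoot and root were both present in the labelled whole seedlings. PLT2, a root stem cell factor, was the member of that list that did not pass, being well above background on 3 mock arrays and 0 gamma arrays.

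The first comparison, gamma against mock, asks which transcripts respond to irradiation. The family was taken up because IQD16 was among the strongest decreases here. The values below are therefore a description, with no p-value for any member, and they support nothing about the family. In the fit over all 23667 genes (limma with the run as a block, Benjamini-Hochberg adjusted p under 0.05), 5 of the 31 measured members were called lower: IQD6, IQD12, IQD16, IQD26 and IQD33. Of all genes 2.32% were called lower and 4.01% in either direction. The count called higher was 0 members in limma, beside 1.68% of all genes. At an unadjusted p under 0.05 limma held 12 members that were lower and 1 that was higher, which is 41.9% of the 31, beside 22% of all genes (5195) in either direction. In all, 398 genes rose and 550 fell, or 520 and 495 with scaling to the array median and 517 and 494 with the deposited value table. The median log2 change of the 31 members was -0.15, beside -0.015 for all genes, and 24 members had an estimate below 0, beside 53.8% of all genes.

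**Figure D1:**
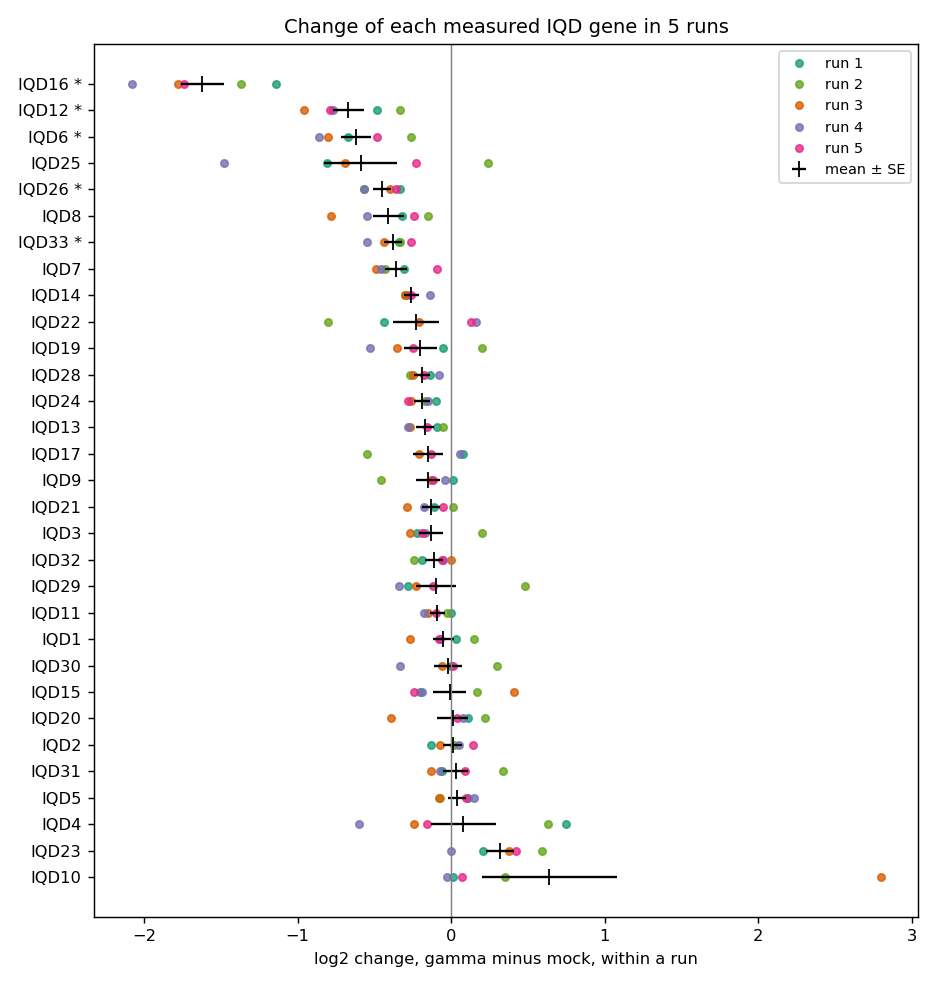
Log2 change (gamma minus mock) of the 31 measured IQD genes, ordered by mean. Coloured points are the 5 runs, black marks are the mean with its standard error, and asterisks mark the 5 genes called lower over all genes. IQD16 lies apart at -1.62, most members lie between -0.5 and 0.32, and the high mean of IQD10 comes with 1 point at 2.80.

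IQD16 (AT4G10640) acts with katanin, the enzyme that severs microtubules, at the cell cortex. Its mock levels were -3.84, -3.59, -3.49, -3.90 and -4.15 in runs 1 to 5. After irradiation the levels were -4.97, -4.96, -5.27, -5.98 and -5.88 in the same runs. Every gamma array was below every mock array. The log2 change was -1.62 ± 0.14 (SE, n = 5 pairs), which is 3.08-fold lower. In signal the probe gave 112 to 166 intensity units on the mock arrays and 26.0 to 84.8 on the gamma arrays. It was well above background on 5 mock arrays and on 4 of 5 gamma arrays. The log2 differences within runs 1 to 5 were -1.14, -1.37, -1.78, -2.08 and -1.74. With normexp background correction the log2 change was -0.84, still called. The offset of 50 added there to each signal shrinks the changes of dim probes by construction.

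IQD6, IQD7 and IQD8 form the group that marks the cell division site. They help to position the preprophase band and the kinesins that guide the new cell wall. IQD6 (AT2G26180) fell by 0.62 ± 0.10 on the log2 scale (SE, n = 5 pairs), or 1.53-fold. Its mock levels were -1.87, -2.60, -2.46, -2.04 and -2.62 in runs 1 to 5. The gamma levels of IQD6 were -2.54, -2.87, -3.26, -2.91 and -3.10. The groups overlapped, because the gamma array of run 1 was above the mock arrays of runs 2 and 5, while each gamma array was below the mock array of its own run.

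IQD7 (AT1G17480) gave -0.36 ± 0.07 (SE, n = 5 pairs) and was not called. On the mock arrays IQD7 was at -2.63, -3.06, -2.88, -2.52 and -3.29, and on the gamma arrays at -2.93, -3.49, -3.37, -2.99 and -3.38. Runs 1 and 4 were the high runs in both groups. IQD8 (AT1G72670) gave -0.41 ± 0.10 and was not called. Its levels were -1.25, -1.58, -1.56, -1.43 and -1.96 after mock treatment and -1.57, -1.72, -2.34, -1.98 and -2.20 after irradiation. With the slide as a random block both IQD7 and IQD8 were called, and IQD7 also with genes well above background on all 10 arrays. As for IQD6 and IQD7, each gamma array was below the mock array of its run, and the groups overlapped.

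IQD12 (AT5G03960) belongs to the same family as the tomato fruit shape gene SUN. It fell by 0.67 ± 0.10 on the log2 scale (SE, n = 5 pairs), or 1.59-fold. Mock levels were -4.54, -4.89, -4.78, -4.70 and -4.75, and gamma levels -5.02, -5.22, -5.75, -5.47 and -5.53. All gamma arrays of IQD12 were below all mock arrays. The probe was dim, at 64.4 to 92.5 intensity units on the mock arrays and 35.0 to 70.8 on the gamma arrays. With normexp the log2 change was -0.38, still called.

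IQD26 (AT3G16490) fell by 0.45 ± 0.06 on the log2 scale (SE, n = 5 pairs), or 1.36-fold. Its mock levels in runs 1 to 5 were -3.36, -2.93, -3.28, -3.04 and -3.24. After irradiation IQD26 lay in a narrow band, at -3.69, -3.50, -3.68, -3.61 and -3.60, and no gamma array reached the lowest mock array. The standard deviation was 0.18 over the mock arrays and 0.08 over the gamma arrays.

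IQD33 (AT5G35670) fell by 0.38 ± 0.06 on the log2 scale (SE, n = 5 pairs), or 1.31-fold. Its levels were -1.11, -1.50, -1.04, -0.77 and -1.72 on the mock arrays and -1.45, -1.84, -1.48, -1.32 and -1.98 on the gamma arrays. The groups overlapped widely, since runs 2 and 5 were low under both treatments, and the 5 differences within runs lay between -0.55 and -0.26. Its second probe gave -0.37 ± 0.06.

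Of the 5 members called lower, 1 kept its call, IQD16, when run 1, 3, 4 or 5 was left out, when the filter on dim probes was dropped, or when the run was not used as a block. All 5 were called without run 2. With genes well above background on all 10 arrays IQD16 was not tested, and the other 4 were called. Without single runs the log2 change lay between -1.74 and -1.51 for IQD16, -0.75 and -0.59 for IQD12, -0.70 and -0.55 for IQD6, -0.47 and -0.41 for IQD26, and -0.41 and -0.34 for IQD33.

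**Figure D2:**
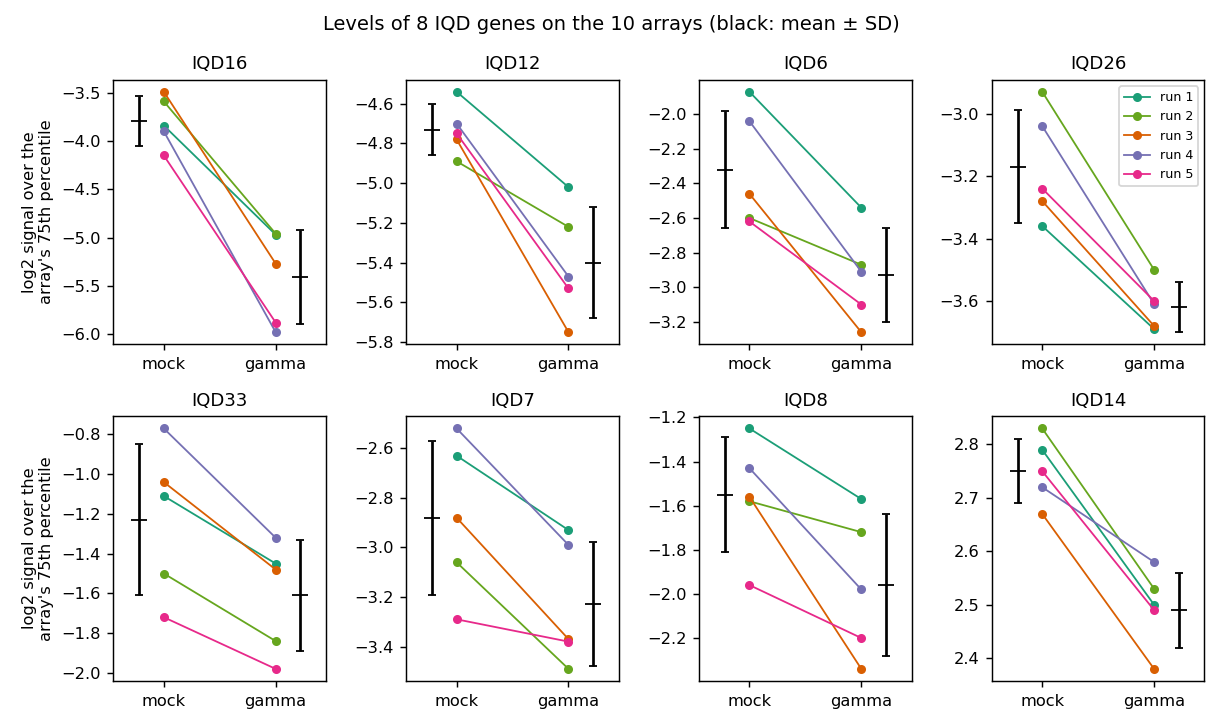
Levels of 8 IQD genes on the 10 arrays, as log2 signal over the 75th percentile of the array. Lines join the mock and gamma array of a run, and black bars are the group mean with its standard deviation (n = 5). The 8 genes are from the 12 members that were lower in 5 of 5 runs, so all 40 lines slope downward by that choice. The groups do not overlap for IQD16, IQD12, IQD26 and IQD14.

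Besides the 5 members called, 7 were lower in 5 of 5 runs without being called, which makes 12 members of 31, beside 13.5% of all genes lower in 5 of 5 runs. They include IQD7 and IQD8, described above. In run 2 the signals before scaling were lower on the gamma array for IQD7, IQD16 and IQD26 and higher for the other members of the 12. The 75th percentile of that run was 1995 on the mock and 2642 on the gamma array. Those other members were therefore lower in run 2 only after scaling. For IQD14 (AT2G43680) the standard deviation of the 5 differences within runs was 0.07. Its mock levels were 2.79, 2.83, 2.67, 2.72 and 2.75 and its gamma levels 2.50, 2.53, 2.38, 2.58 and 2.49, so that the groups did not overlap. The log2 change was -0.26 ± 0.05 (SE, n = 5 pairs), or 1.20-fold lower, and a second, dimmer probe gave -0.23 ± 0.10. IQD14 was not called, but it was with quantile normalisation, with normexp, with genes well above background on all arrays, and with the slide as a random block. Members whose groups did not overlap numbered 4 on the lower side and 0 on the higher, beside 1.12% and 0.913% of all genes.

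IQD13 (AT3G59690) limits the size of the pits in the walls of xylem vessels. It gave -0.17 ± 0.06 (SE, n = 5 pairs), with mock levels of -1.69, -1.57, -1.39, -1.56 and -1.48 and gamma levels of -1.79, -1.62, -1.65, -1.84 and -1.64. IQD24 (AT5G07240) gave -0.19 ± 0.05, from mock levels of -1.22, -0.87, -0.75, -0.74 and -1.16 to gamma levels of -1.32, -1.04, -1.01, -0.89 and -1.43. The difference of IQD24 was smaller than the spread between runs, which the same runs 1 and 5 set under both treatments. IQD28 (AT1G14380) gave -0.19 ± 0.05, with levels of 0.01, -0.02, -0.15, 0.00 and -0.02 on the mock arrays and -0.13, -0.29, -0.40, -0.09 and -0.20 on the gamma arrays. IQD11 (AT5G13460) gave -0.09 ± 0.05, from -0.83, -0.73, -0.78, -0.87 and -0.93 to -0.83, -0.76, -0.92, -1.06 and -1.03, with a difference of 0.00 in run 1 after rounding. None of these 4 was called in limma with the run as a fixed block, and IQD28 was called with the slide as a random block.

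IQD25 and IQD10 had estimates of at least 0.5 in size and were not called. IQD25 (AT4G29150) gave -0.59 ± 0.24 (SE, n = 5 pairs). Its levels were -4.55, -4.94, -3.93, -4.02 and -5.22 on the mock arrays and -5.36, -4.70, -4.61, -5.50 and -5.45 on the gamma arrays. It was lower in 4 of 5 runs and higher in run 2, and the differences ran from -1.48 to 0.24. Without run 4 the log2 change was -0.37, and with normexp it was -0.34.

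IQD10 (AT3G15050), whose poplar counterpart has been linked to secondary wall formation, gave 0.64 ± 0.44 (SE, n = 5 pairs). Its mock levels were -5.31, -4.94, -5.05, -5.16 and -5.38 and its gamma levels -5.30, -4.59, -2.26, -5.19 and -5.31. The gamma array of run 3 alone was high, with 392 intensity units beside 45.1 to 110 on the other gamma arrays. Without run 3 the log2 change was 0.10, and with normexp it was 0.40. The locus has a single probe.

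The other 17 measured members were lower or higher by small amounts, with estimates from -0.23 to 0.32 and standard errors from 0.06 to 0.21, and none was called. IQD1 (AT3G09710), the founding member, which raises glucosinolate levels and brings kinesin light chain-related proteins to microtubules, gave -0.05 ± 0.07 (SE, n = 5 pairs). Its closest neighbours by name, IQD2 (0.01 ± 0.06), IQD3 (-0.13 ± 0.08) and IQD4 (0.08 ± 0.21), likewise did not pass. IQD5 (AT3G22190), which shapes the lobed epidermal cells of the leaf, gave 0.04 ± 0.06. The highest estimate among the 17 was that of IQD23 (AT5G62070), at 0.32 ± 0.09, with levels of -0.98, -1.03, -1.10, -0.91 and -0.70 on the mock arrays and -0.78, -0.44, -0.72, -0.91 and -0.27 on the gamma arrays. IQD23 was named after its values were seen.

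Of the 32 loci on the array 8 had 2 probes, 2 had 3 and 22 had 1. The estimates of probes of a locus differed by at most 0.06 on the log2 scale, and they had 1 sign at 9 of the 10 loci with several probes. The exception was IQD2, whose probes gave 0.01 and 0 after rounding, so their signs cannot be compared. For IQD21 (AT3G49260) the 3 probes gave -0.13, -0.11 and -0.09. For IQD5 the 2 probes, matched to separate transcript records, gave 0.10 and 0.04. The members called lower other than IQD33 rest on 1 probe each.

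Listed markers of dividing cells were lower in the same comparison. CYCB1;1, a B-type cyclin, was not on that list, so the counts below do not cover it. Of 19 G2 and mitosis markers 10 fell, 0 rose and 9 did not pass, with a median log2 change of -0.63 beside -0.015 for all genes, and 17 of them (89.5%) were at an unadjusted p under 0.05 in limma, beside 22% of all genes. CYCB2;1, a mitotic cyclin, fell by 0.88 ± 0.11 (SE, n = 5 pairs, limma adjusted p = 0.0148) and AUR3, an Aurora kinase, fell by 0.73 ± 0.09 (limma adjusted p = 0.0153). The summed signal of the 19 markers was 6.43 to 10.1 times the 75th percentile on the mock arrays and 3.48 to 6.99 times on the gamma arrays. All 19 were well above background on all 10 arrays. Of 13 root markers 2 (15.4%) fell and 11 did not pass, beside 2.32% of all genes called lower. At an unadjusted p under 0.05 limma held 7 of the 13 (53.8%), beside 22% of all genes. Estimates were below 0 for 12 of the 13, beside 53.8% of all genes, with a median of -0.38. Their summed signal was 5.00 to 8.05 on the mock arrays and 3.80 to 5.83 on the gamma arrays. The 2 that fell were CASP5, a membrane protein of the Casparian strip, and PLT1, a root stem cell factor. CASP5 gave -1.96 ± 0.24 (limma adjusted p = 0.0145) and PLT1 gave -1.62 ± 0.26 (limma adjusted p = 0.0313), with 3 and 1 of 5 gamma arrays well above background. PLT1 passed the filter through the mock arrays, and its gamma signals of 5.49 to 29.0 intensity units leave the size of its change uncertain. With normexp the log2 changes were -0.89 for CASP5, -0.51 for PLT1 and -0.51 for CYCB2;1, all still called. Of 6 leaf markers 0 passed in limma, also 0 at an unadjusted p under 0.05, with a median of -0.01. RCA, which activates the carbon-fixing enzyme, gave 0.10 ± 0.05 (limma adjusted p = 0.299), and LHCB1.3, a light-harvesting protein, gave -0.04 ± 0.09. That RCA probe had the lowest estimate of 9, and the other RCA probes gave 0.14 to 0.31. With the mean of all probes RCA gave 0.19 ± 0.08 and was not called (limma adjusted p = 0.248). CYCB2;1, AUR3, CASP5 and PLT1 all lost their calls without the block, and each lost it without at least 1 of the runs.

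Run by run, the medians of the G2 and mitosis markers were -0.49, -0.48, -1.14, -0.72 and -0.39 in runs 1 to 5. The differences of IQD6 in the same runs were -0.67, -0.26, -0.80, -0.86 and -0.48, and those of IQD8 were -0.32, -0.15, -0.78, -0.55 and -0.24. Run 3 held the lowest marker median and the lowest differences of IQD7, IQD8 and IQD12. IQD6, IQD16 and IQD33 had theirs in run 4, and IQD26 in runs 2 and 4. The root markers had medians of -0.11, -0.04, -0.51, -0.60 and -0.63, and IQD16 and IQD12 were likewise lower in each of runs 3, 4 and 5 than in runs 1 and 2. The same order held for IQD1, IQD4, IQD11, IQD13 and IQD19, which were not called. It did not hold for IQD6, IQD26 and IQD33, which were. The part of the dividing and root cells in the changes of the IQD genes was not tested. In whole seedlings, fewer cells of a type and less RNA per cell cannot be told apart.

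**Figure D3:**
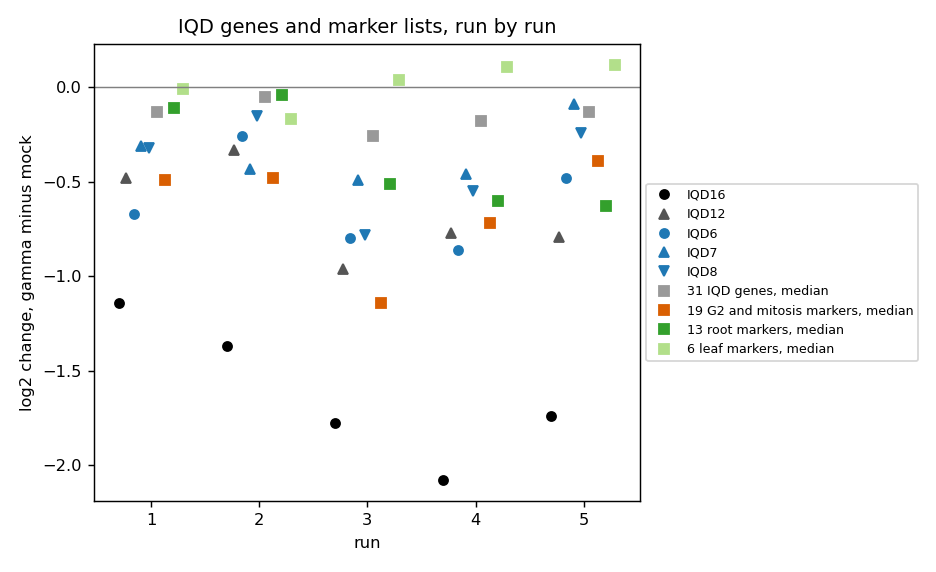
Log2 change (gamma minus mock) in each of the 5 runs for IQD16, IQD12, IQD6, IQD7 and IQD8 (black, grey and blue points) beside the medians of the IQD family and of 3 marker lists (squares). IQD16 runs from -2.08 to -1.14, while the leaf marker medians stay between -0.17 and 0.12. Single markers are not drawn, and some reach as low as IQD16 (CASP5 -2.73 in run 5).

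The other genes of the pathway were then set beside the family, starting with the calmodulins that IQD proteins bind. Of 9 listed calmodulin and calmodulin-like genes 8 were measured, and limma called 0 of them, beside 4.01% of all genes. At an unadjusted p below 0.05 limma held 1 (12.5%), beside 22% of all genes, and the list had a median log2 change of 0.01. CAM1 gave 0.06 ± 0.07 (SE, n = 5 pairs), and the estimates of CAM1 to CAM7 lay between -0.03 and 0.06. The calmodulin genes are near-identical in sequence, so their probes may share signal. CML9, a calmodulin-like protein of stress responses, gave 0.25 ± 0.06 (limma adjusted p = 0.0877) and was higher in 5 of 5 runs.

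Among 14 partners and neighbours of IQD proteins at cortical microtubules limma called 0, beside 4.01% of all genes. An unadjusted p below 0.05 was held by 4 (28.6%), beside 22% of all genes, and the list had a median of -0.10. KTN1, the severing subunit of katanin, gave -0.21 ± 0.05 (SE, n = 5 pairs, limma adjusted p = 0.0697) and was lower in 5 of 5 runs. SPR1, a protein of microtubule plus ends, gave 0.21 ± 0.05 (limma adjusted p = 0.0736) and was higher in 5 of 5. The kinesin light chain-related genes KLCR1, KLCR2 and KLCR3 gave -0.09 ± 0.08, -0.23 ± 0.06 and -0.14 ± 0.07. SPR1 was called with normexp (limma adjusted p = 0.0433), and SPR1, KTN1 and the tubulin TUB2 were called with the slide as a random block (limma adjusted p = 0.0408, 0.0154 and 0.0239). Of 15 tubulin genes limma called 0, and 2 (13.3%) had an unadjusted p below 0.05, beside the same 4.01% and 22% of all genes. The list had a median of -0.11. TUB2 gave -0.19 ± 0.05 (limma adjusted p = 0.0877) and TUB9 gave 0.19 ± 0.06 (limma adjusted p = 0.141), and the estimates of all 15 lay between -0.21 and 0.19. A second probe of TUB2 gave -0.05 ± 0.08.

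Of 9 division plane genes 8 were measured, 1 rose, 1 fell and 6 did not pass, beside 1.68% of all genes called higher and 2.32% lower. At an unadjusted p under 0.05 limma held 4 of the 8 (50%), beside 22% of all genes. The list had a median log2 change of -0.05. TAN1 (AT3G05330), a protein that marks the division site until the new wall reaches it, fell by 0.57 ± 0.10 on the log2 scale (SE, n = 5 pairs, limma adjusted p = 0.0379). Its levels were -0.70, -1.36, -1.20, -0.92 and -1.25 on the mock arrays and -1.25, -1.89, -2.12, -1.55 and -1.47 on the gamma arrays. The kinesins POK1 and POK2, which interact with IQD6, IQD7 and IQD8, gave -0.48 ± 0.16 and -0.43 ± 0.10, both lower in 5 of 5 runs and neither past the threshold. The call of TAN1 was lost without any 1 of the 5 runs, without the block and without the filter.

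TON1B (AT3G55005), of a pair of neighbouring genes needed for the preprophase band, rose by a log2 of 0.66 ± 0.07 (SE, n = 5 pairs, limma adjusted p = 0.0108). It went from -0.25, -0.56, -0.41, -0.40 and -0.45 on the mock arrays to 0.22, 0.30, 0.24, 0.36 and 0.12 on the gamma arrays, with no overlap, and its second probe gave 0.74 ± 0.07. TON1A (AT3G55000), the other gene of the pair, gave -0.07 ± 0.06. Without run 3 or run 4 the call of TON1B ended (limma adjusted p = 0.0555 and 0.0563) at log2 changes of 0.66 and 0.64.

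Of 10 genes of xylem pits and secondary walls limma called 0, beside 4.01% of all genes. At an unadjusted p below 0.05 there were 0, beside 22% of all genes, and the list had a median of 0.04. The 10 included the xylem master regulator VND7 (0.17 ± 0.09), the protease XCP2 (-0.12 ± 0.06) and the secondary wall cellulose synthases CESA4, CESA7 and CESA8 (0.02, 0.06 and 0.01). Of 4 genes of primary wall cellulose synthesis 0 passed, with 0 at an unadjusted p under 0.05, beside the same shares of all genes. The estimates of the 4 lay between -0.07 for CSI1 and 0.05 for CESA6. CESA1, a cellulose synthase of the primary wall, gave 0.04 ± 0.05 (limma adjusted p = 0.69).

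**Figure D4:**
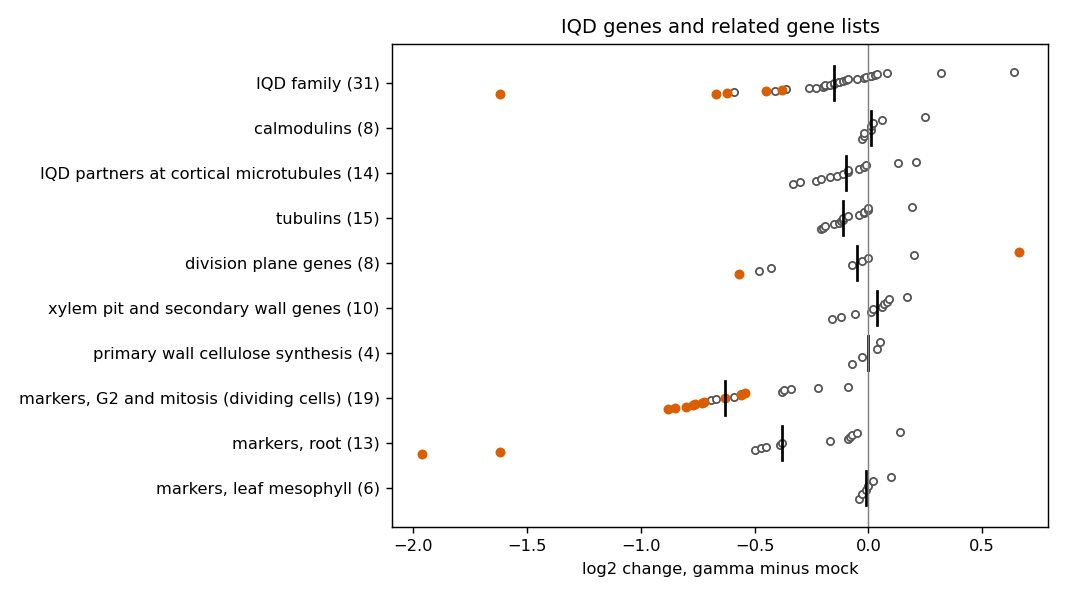
Log2 change (gamma minus mock) of each measured gene in the IQD family, in 6 lists of related genes and in 3 marker lists, with the number measured in parentheses. Filled points passed the threshold over all genes, open points did not, and black bars are list medians. Filled points appear in the IQD family, the division plane genes and the mitosis and root markers, and in none of the calmodulin, cortical microtubule, tubulin and wall lists in this fit. Of all genes 4.01% were called, so 0 in lists of this length does not set them apart.

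The second comparison asked how levels of the IQD genes varied between runs in unirradiated seedlings, which the choice of the family did not use. Standard deviations over the 5 mock arrays ran from 0.06 for IQD14 and IQD28 to 0.68 for IQD22. The median over all genes was 0.292, and 11 members were above it and 20 below. IQD22 (AT4G23060) was at 0.04, 0.32, -0.31, -0.45 and 1.25 on the mock arrays of runs 1 to 5. Its gamma levels of -0.41, -0.48, -0.53, -0.29 and 1.39 again had run 5 highest. The change of IQD22 between treatments, -0.23 ± 0.15 (SE, n = 5 pairs), was smaller than its spread between runs.

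Later runs were then tested against earlier runs on the mock arrays alone (limma, 3 against 2 arrays, adjusted over all 23667 genes). The later and earlier runs differed in year, plants, slides and scans, which cannot be told apart. Of the 31 members 0 were called by limma and 1 had an unadjusted p below 0.05, beside 0.228% of all genes called (0.0803% higher in later runs) and 8.36% at such a p. IQD15 (AT3G49380) was the 1 member. Its mock levels were -5.08 and -5.26 in the earlier runs and -4.14, -4.25 and -4.04 in the later runs, so that the runs did not overlap. The difference was 1.03 ± 0.18 on the log2 scale (SE, limma adjusted p = 0.172). On the gamma arrays the same order held, with -5.29 and -5.09 in the earlier and -3.73, -4.44 and -4.28 in the later runs. The change of IQD15 between treatments was -0.01 ± 0.11. On the same mock arrays 3 of 13 root markers were at an unadjusted p under 0.05 and limma called 0. They were the root hair genes RHD6 (1.25 ± 0.19, limma adjusted p = 0.122), EXPA7 (0.95 ± 0.23, limma adjusted p = 0.342) and COBL9 (0.79 ± 0.21, limma adjusted p = 0.383), all higher in the later runs. Their part in the difference of IQD15 was not tested. IQD15, IQD22 and IQD4 are given in full because of values seen in these tests.

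**Figure D5:**
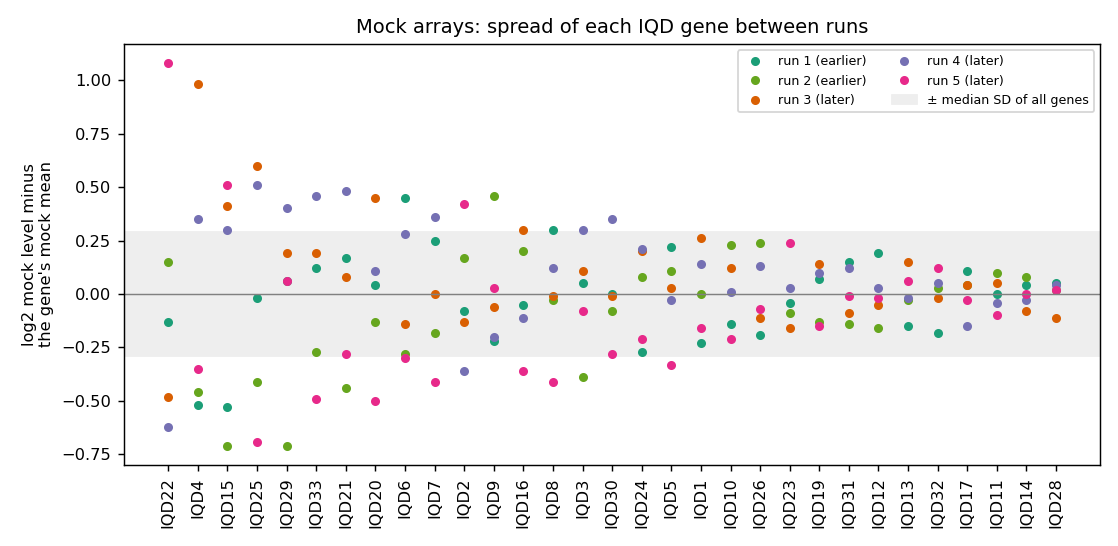
Mock level of each measured IQD gene in each of the 5 runs, as log2 signal minus the mean of that gene over the mock arrays, ordered by standard deviation. The grey band is plus or minus the median standard deviation of all genes, 0.292. IQD22 is high in run 5, IQD4 is high in run 3, and IQD15 is low in runs 1 and 2.

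The third comparison asked whether the response itself differed between later and earlier runs (limma on the 5 differences within runs, 3 against 2). Of the 31 members 0 were called by limma and 5 had an unadjusted p below 0.05, beside 0.00423% of all genes called and 10.5% at such a p. The 5 were IQD4, IQD12, IQD16, IQD19 and IQD22, and their adjusted p lay between 0.166 and 0.392. IQD4 (AT2G26410) differed by the most. Its differences between gamma and mock were 0.75 and 0.63 in runs 1 and 2, and -0.24, -0.60 and -0.16 in runs 3 to 5. The later response minus the earlier one was -1.03 ± 0.16 (SE, limma adjusted p = 0.166). The levels of IQD4 were -5.14, -5.08, -3.64, -4.27 and -4.97 on the mock arrays and -4.38, -4.45, -3.89, -4.86 and -5.14 on the gamma arrays.

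For IQD16 the later response minus the earlier one was -0.61 ± 0.16 (SE, limma adjusted p = 0.318), and for IQD12 it was -0.44 ± 0.12 (limma adjusted p = 0.349). For IQD22 it was 0.65 ± 0.18 (limma adjusted p = 0.349) and for IQD19 (AT4G14750) -0.45 ± 0.14 (limma adjusted p = 0.392). In this test 8 of 13 root markers were at an unadjusted p under 0.05 and limma called 0, with a lowest adjusted p of 0.205. The later response minus the earlier one was 1.54 ± 0.35 for NRT2.1. It was below 0 for the others of the 8, from -1.27 ± 0.36 for CASP4 to -0.46 ± 0.11 for CASP2. The part of these markers in the differences of the IQD genes was not tested. IQD6, IQD26 and IQD33 gave -0.25 ± 0.19, 0.01 ± 0.13 and -0.08 ± 0.13. A p-value above the threshold with 3 runs against 2 does not show that the responses were alike.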

How the data were processed

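Whole-seedling RNA of 10 samples was hybridised to 10 arrays. Per the file headers, the deposited scanner files hold linear spot intensity from Agilent Feature Extraction 11.0.1.1, background-subtracted and detrended, with no scaling between arrays; the submitters' processing notes name version 9.1. The deposited value table holds linear ratios: the row median was 1, within 1e-04, for 77.7% of probes, and each median-centred column followed the scanner values with r of at least 0.996 across probes. Its scaling and the centring of other rows stay unknown, and the medians of its columns, in run order, were 0.969, 0.963, 0.959, 0.974 and 0.925 (mock) and 0.967, 0.96, 0.967, 0.992 and 0.925 (gamma). It served only as an alternative.

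Of 43803 non-control spots, those marked as outliers were left out and spots of a probe were averaged, which gave 43603 probes. Levels are log2 processed signal minus the 75th percentile of the array. Probes were named through transcript accessions with the RefSeq table of TAIR10.1 (34348 matched a locus), and the brightest probe of a gene was used if well above background on at least 5 arrays, which left 23667 genes. The files' grid names TAIR10, so no coordinates are given.

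Fits used limma 3.58.1 (lmFit, eBayes) in R 4.3.3, two-sided, with Benjamini-Hochberg adjustment over all genes, and were tested on simulated data. Standard errors are moderated. The run was a fixed block: the titles give each array's run, and the deviations of the mock and gamma array of a run correlated at 0.562 to 0.894 across genes, against at most 0.46 with other runs. The deviations were taken from each gene's mean over the 5 arrays of its group, which lowers the correlations between different runs by construction. The family, the lists and the tests were chosen with earlier results of these data known. Members named with values on every array were those called, those with a log2 change of at least 0.5 in size, and those with 1 sign in all 5 runs. Of each list the 2 genes with the smallest adjusted p were named. RHD6, EXPA7, COBL9, NRT2.1, CASP4 and CASP2 were named for their values in the tests between runs. CESA6 was named as the end of a range, PLT2 for not passing the filter, and other listed genes for their role. IQD4, IQD15, IQD19, IQD22 and IQD23 were named after their values were seen. Members past the threshold of a test between runs would also have been named. The motif and protein descriptions planned were not made, since no sequences were used here. Alternatives covered scaling, background correction (normexp on the median spot and background signals, offset 50), filter, probes, block, slide, deposited table and single runs.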

Additional observations from a re-analysis of the deposited data

Results flagged for a closer look

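In 5 of the 62 groups tested (31 members, mock or gamma, 5 arrays each) 1 array lay far from the other 4, by a criterion that chance meets in about 5% of groups. IQD10 was at -2.26 on the gamma array of run 3, with the next array at -4.59. IQD22 was at 1.39 on the gamma array of run 5, with the next at -0.29, and the mock array of that run was also its highest. IQD20 was at -4.35 on the gamma array of run 5 (next -3.83), and its mock array of that run was the lowest as well, at -4.39. IQD3 was at -1.21 on the gamma array of run 4 (next -1.50), and IQD28 was at -0.15 on the mock array of run 3 (next -0.02).

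The response of 2 members pointed up in both earlier runs and down in all later ones. For IQD4 the later response minus the earlier was -1.03 (limma adjusted p = 0.166), and for IQD1 it was -0.23 (limma adjusted p = 0.546), so neither difference passed the test over all genes.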

How the results depend on the processing

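Counts of calls over all genes depended on the settings more than the estimates did. For gamma against mock, 948 genes were called, and 328 with no filter, 142 with no replicate block, 1921 with the slide as a random block and 181 to 1022 without single runs. Members called lower numbered 5, or 1 with no filter or with no replicate block, 9 with the slide as a random block and 1 to 5 without single runs; the higher count was 0, or 1 (IQD23) with the slide as a random block. With genes well above background on all 10 arrays 6 were called, and IQD16 was not among the genes tested. With no block the 1 member was IQD16, and with quantile normalisation or normexp all 5 were called, with IQD14. The response difference between later and earlier runs was called for 1 gene, or 15 with array median scaling, 2 with quantile normalisation, 44 with normexp, 0 with no filter, 13 with genes well above background on all 10 arrays, and 0 to 616 without single runs. The mock difference was called for 54 genes, or 0 with no filter, 20 with genes well above background on all 10 arrays, and 0 to 89 without single runs. Of the single genes, LHCB1.3 (-0.04) turned to 0.02 with quantile normalisation and lay between -0.09 and 0.05 without single runs, at 0.05 without run 2, and CSI1 to 0.03 with normexp. Leaving out 1 of 2 earlier runs leaves 1 array there, assumed to vary like the rest. More genes tested with no filter, or fewer arrays, change the adjustment by construction; other causes were not tested. Dim probes limit IQD4, IQD10, IQD12, IQD15, IQD16 and IQD25.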
